A study of Mus musculus with 6 samples.

Results

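The apelin receptor gene Aplnr, its ligand gene Apln and 8 genes that mark blood vessel endothelium in general (Pecam1, Cdh5, Plvap, Tie1, Emcn, Vwf, Eng and Esam) were followed in RNA-seq of RPE-choroid, the retinal pigment epithelium with the vascular coat beneath it. The 10 genes were chosen by name out of 15663 listed genes. All 10 were listed in each library and passed the filter on low counts, a count above 50 in 2 or more libraries, which left 13454 genes to test. The set was proposed with earlier results of the same comparison known, and Aplnr entered it because it differed between the groups. The members' values are therefore given as a description, with no test. The question was whether Aplnr and Apln moved apart from the general endothelial genes.

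RPE-choroid came from 3 untreated control mice and 3 mice with subretinal fibrosis (SRF), labelled as strain C57BL/6 and, by the study's methods, C57BL/6J males aged 8 to 10 weeks. In SRF mice, each eye received 4 laser burns around the optic nerve head, every lesion was burned a second time after 10 days, and RNA was extracted 20 days after this second burn. Each library held whole RPE-choroid, in SRF mice the lesions with the tissue between them, so a change in a few vessels is diluted. In such bulk tissue, fewer cells of a type and less RNA per cell cannot be told apart.

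Aplnr encodes a G protein-coupled receptor found on endothelial cells, above all in veins and growing capillaries, and it is activated by the secreted peptide apelin. Apln is made by the tip cells that lead new sprouts and is among the genes raised by low oxygen. The choriocapillaris, the capillary bed under the retinal pigment epithelium, has windows called fenestrae that are closed by diaphragms of the Plvap protein.

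The apelin precursor is a short protein from whose end the active peptides are cut. On GRCm38 (GENCODE M21), Apln lies at chrX:48025146-48034853 on the reverse strand, in 3 exons, and its coding sequence of 234 bases is shown to identify the ligand measured here. Capitals mark its last 13 codons, which encode apelin-13, the short active form.
Apln coding sequence: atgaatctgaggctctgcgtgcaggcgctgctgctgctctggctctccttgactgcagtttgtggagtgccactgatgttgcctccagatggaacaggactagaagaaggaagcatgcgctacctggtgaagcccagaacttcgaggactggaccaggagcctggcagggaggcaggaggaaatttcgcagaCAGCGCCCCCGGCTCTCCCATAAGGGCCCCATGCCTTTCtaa

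Aplnr lies at chr2:85136225-85139923 on the forward strand and has 1 exon of 3699 bases, shared with no other annotated gene. RefSeq promoter sequence (GRCm38.p6) was matched for 4 of the 10 members, Apln, Eng, Emcn and Tie1, and the 250 bases before the start are shown for the ligand and for Eng, a general endothelial gene, so that the promoters can be read side by side. Emcn and Tie1 are not printed because their windows run into the GENCODE gene models. Capitals mark GGAA on either strand (TTCC in the printed strand), the core bound by ETS factors, a family that includes endothelial regulators.
Apln, chrX:48034854-48035103, reverse strand: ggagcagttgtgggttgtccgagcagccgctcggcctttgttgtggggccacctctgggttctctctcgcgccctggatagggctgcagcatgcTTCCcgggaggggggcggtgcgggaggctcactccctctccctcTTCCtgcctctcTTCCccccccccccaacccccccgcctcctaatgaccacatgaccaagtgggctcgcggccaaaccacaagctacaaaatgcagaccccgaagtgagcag
Eng, chr2:32646345-32646594, forward strand: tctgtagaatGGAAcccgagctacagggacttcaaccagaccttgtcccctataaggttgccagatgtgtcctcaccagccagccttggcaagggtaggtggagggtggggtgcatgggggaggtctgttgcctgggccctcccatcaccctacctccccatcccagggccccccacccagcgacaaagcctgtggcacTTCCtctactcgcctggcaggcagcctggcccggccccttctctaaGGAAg
The core occurred 3 times in the Apln window and 3 times in Eng, and 93.4% of 32851 promoter windows of this length held it, with a median of 3. The hypoxia response core, searched as ACGTG or GCGTG on both strands, was in neither window and in 38.6% of all promoters. The SOX core AACAAT was in neither window and in 9.42% of all promoters. The longer ETS site CCGGAAGT, which contains GGAA, was in neither and in 2.88% of all promoters. The GATA site AGATAA was in neither and in 9.99% of all promoters. The AP-1 site TGANTCA was in neither and in 6.75% of all promoters, and the TATA box was in neither and in 12.4%, all searched on both strands. GC content was 65.2% in the Apln window and 62.4% in Eng. These are matches of letters, not sites shown to be bound.

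Libraries held 13667310 to 24356023 counts. Photoreceptor RNA, a sign of retina carried along in the dissection, differed widely: its mean log2 CPM (counts scaled to the size of the library) over 12 genes was 8.75 in control mouse 1 and 8.65 in SRF mouse 3, and between 4.66 and 5.91 in the other 4 libraries. Both groups held 1 such library, and main values are also given without these 2 libraries.

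Aplnr was higher in every SRF mouse than in every control mouse. In control mice 1, 2 and 3 it had 61, 102 and 176 counts, or 4.54, 5.53 and 7.34 CPM. In SRF mice 1, 2 and 3 it had 330, 452 and 257 counts, or 17.8, 25.2 and 14.4 CPM. The lowest SRF value was thus above the highest control value, as for 6.71% of all tested genes in this direction. The means were 5.81 ± 1.42 CPM in control mice and 19.1 ± 5.50 CPM in SRF mice (SD, n = 3 each), a fold of 3.28 and a log2 fold change of 1.71 (SE 0.28). Of the 13454 tested genes, Aplnr ranked 10 by log2 fold change. Counting error alone was 12.8% at its lowest count and 4.70% at its highest, smaller than the spread between mice.

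The comparison that chose Aplnr also decided its calls, which are listed only for completeness. Over all tested genes, edgeR called 0 genes (0.0%), a call being an adjusted p-value below 0.05 together with an absolute log2 fold change of 0.5 or more. Its unadjusted p-value was under 0.05 for 943 genes (7.01%), with 4.16% of all tested genes higher and 2.85% lower in SRF mice. DESeq2, the tool of the study's methods, called 153 genes (1.14%), 108 higher (0.803%) and 45 lower (0.334%), with Aplnr among the higher. The edgeR adjusted p-value of Aplnr was 0.227. Without control mouse 1 and SRF mouse 3, the libraries rich in photoreceptor RNA, edgeR called 153 of 13145 genes (1.16%), again with Aplnr among them. The log2 fold change of Aplnr was then 1.73.

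Apln, the ligand, did not move with its receptor. It had 61, 121 and 271 counts in the control mice and 81, 112 and 87 counts in the SRF mice, or 4.54, 6.56 and 11.3 CPM against 4.38, 6.24 and 4.87 CPM. The groups overlapped, and control mouse 3 was far above the other 5 libraries. Mean CPM was 7.47 ± 3.47 in control mice and 5.16 ± 0.962 in SRF mice (SD, n = 3 each), with a log2 fold change of -0.54 (SE 0.37). That value rested on control mouse 3: without it, the log2 fold change was -0.11.

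The ratio of receptor to ligand was higher in every SRF mouse than in every control mouse. As Aplnr was chosen for its difference between the groups, the ratio is no separate test. For each Apln count there were 0.843 and 0.649 Aplnr counts in control mice 2 and 3 and as many of one as of the other in control mouse 1, against 4.07, 4.04 and 2.95 in the SRF mice. Library size and normalization cancel in this ratio, which compares the counts of a pair of genes of different length and is read only between libraries.

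**Figure D1:**
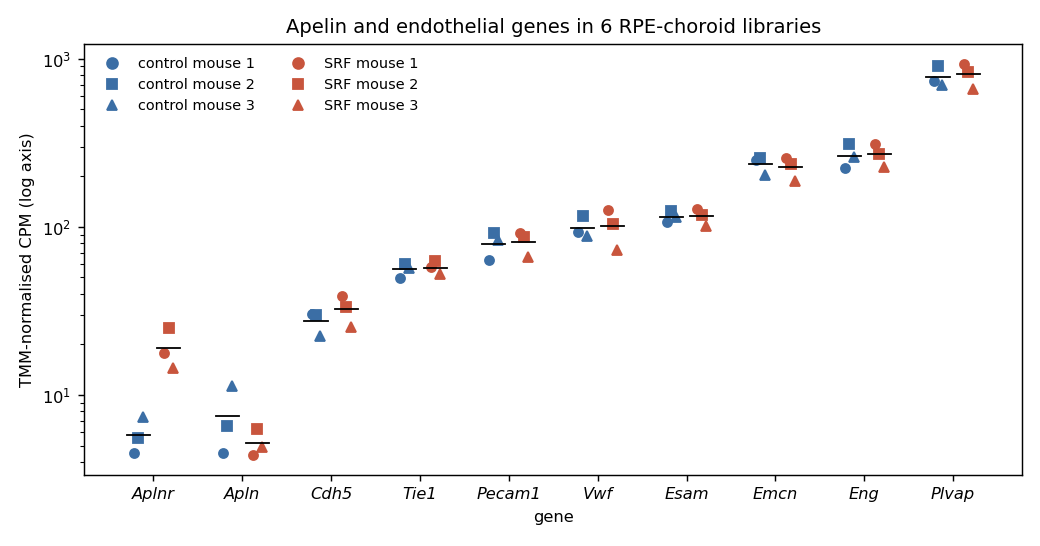
Normalised counts (CPM, log axis) of the 10 members in 3 control and 3 SRF mice, each point 1 mouse and each horizontal line a group mean. The Aplnr points of SRF mice (14.4 to 25.2 CPM) lie above those of control mice (4.54 to 7.34 CPM), while the groups overlap for Apln and for each of the 8 general endothelial genes.

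The 8 general endothelial genes showed no such separation. Their log2 fold changes lay between -0.06 (Emcn) and 0.25 (Cdh5), with a median of 0.03, against 0.00 over all 13454 tested genes. The groups overlapped for each of the 8, where 13.1% of all tested genes had groups apart in either direction. With the photoreceptor score as a covariate, their median was -0.0046 and the log2 fold change of Aplnr 1.68.

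Among the adhesion and junction genes, Pecam1 (CD31, which joins endothelial cells to each other and to leukocytes) had 63.6, 91.7 and 83.0 CPM in control mice and 91.5, 86.9 and 65.9 CPM in SRF mice. Its lowest values were in control mouse 1 and SRF mouse 3, and its log2 fold change was 0.04 (SE 0.18). Cdh5 (VE-cadherin, the adherens junction cadherin of endothelium) had 30.2, 29.9 and 22.3 CPM in control mice and 39.0, 33.3 and 25.5 CPM in SRF mice. Its groups overlapped through SRF mouse 3, and its log2 fold change of 0.25 (SE 0.20) was the highest of the 8. Without control mouse 1 and SRF mouse 3 it was 0.47, which left 2 mice in each group. Esam, an adhesion molecule of endothelial tight junctions and platelets, had 107, 125 and 114 CPM against 129, 117 and 101 CPM, with a log2 fold change of 0.01 (SE 0.13).

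Among the receptors, Tie1 (a receptor tyrosine kinase that modulates angiopoietin signalling) had 49.95, 60.5 and 56.9 CPM in control mice and 57.3, 62.5 and 52.1 CPM in SRF mice, the narrowest spread of the 10 members as the within-group SD of log2 CPM (0.14). Its log2 fold change was 0.04 (SE 0.13). Eng (endoglin, a co-receptor for ligands of the TGF-beta family) had 224, 313 and 260 CPM against 313, 273 and 227 CPM, with a log2 fold change of 0.03 (SE 0.17). Eng shares 61 exonic bases with Fpgs on the opposite strand, and strandedness was not given in the sources used here. The highest control and the highest SRF value of Eng were alike.

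Plvap, the diaphragm protein of choriocapillaris fenestrae, had 741, 900 and 701 CPM in control mice and 937, 833 and 658 CPM in SRF mice, with a log2 fold change of 0.05 (SE 0.17). Emcn (endomucin, a surface sialomucin of capillaries and veins) had 251, 257 and 203 CPM against 257, 238 and 187 CPM, with a log2 fold change of -0.06 (SE 0.16). Vwf (von Willebrand factor, a clotting protein stored in endothelial granules and also made by megakaryocytes) had 92.7, 116 and 87.8 CPM against 126, 104 and 73.0 CPM, with a log2 fold change of 0.03 (SE 0.22). All 3 genes were lowest in SRF mouse 3.

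Levels of different genes were compared per transcript length, as FPKM. In control mice the order was Plvap (385 ± 50.3), Emcn (139 ± 18.4), Eng (77.6 ± 13.1), Esam (60.9 ± 4.64), Vwf (28.5 ± 5.16), Pecam1 (23.8 ± 4.27), Tie1 (13.4 ± 1.25), Cdh5 (6.93 ± 1.25), Apln (2.33 ± 1.09) and Aplnr (1.54 ± 0.376 FPKM, SD, n = 3). Neighbours whose ranges overlapped were Eng and Esam, Vwf and Pecam1, and Apln and Aplnr. In SRF mice the first 8 genes kept this order, and Aplnr (5.26 ± 1.56 FPKM) came before Apln (1.67 ± 0.323 FPKM). The ranges of Aplnr and Apln no longer overlapped in SRF mice, while that of Aplnr (3.92 to 6.97 FPKM) now overlapped that of Cdh5 (6.43 to 9.89 FPKM). The defining endothelial genes were thus present in every library, with Plvap well above the rest.

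Because the amount of endothelium can differ between dissections, Aplnr and Apln were also set against the mean log2 CPM of the 8 general genes in the same library. Aplnr stood at 3.85%, 3.89% and 6.21% of this reference in control mice and at 11.9%, 18.5% and 13.4% in SRF mice. The groups were still apart, with an SRF minus control difference of 1.66 on the log2 scale, beside 1.71 for Aplnr alone. Apln stood at 3.85%, 4.61% and 9.55% of the reference in control mice and at 2.95%, 4.59% and 4.55% in SRF mice, with overlap and a difference of -0.49.

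With a single general gene as the reference, the groups of Aplnr were also apart. This is no separate test, because the references Pecam1 and Cdh5 had log2 fold changes of only 0.04 and 0.25. Per 1000 Pecam1 counts there were 71.4, 60.4 and 88.5 Aplnr counts in control mice and 195, 290 and 218 in SRF mice. Per 1000 Cdh5 counts there were 150, 185 and 329 against 457, 756 and 565. For Apln, the counts per 1000 Pecam1 counts were 71.4, 71.6 and 136 against 47.8, 71.8 and 73.9, which overlapped.

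Set against the other 7, each general gene varied less than Aplnr or Apln. The within-group SD of this relative log2 level was 0.04 for Plvap, the smallest, and 0.19 for Cdh5, the largest of the 8, against 0.36 for Aplnr and 0.56 for Apln. Aplnr and Apln had as few as 61 counts in a library, where the lowest count of the 8 genes was 406. Counting error is larger at low counts, and its part in these spreads was not tested. The spread of Apln includes the high value of control mouse 3. The SRF minus control difference of the relative level was between -0.12 (Emcn) and 0.22 (Cdh5) for the 8 genes.

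**Figure D2:**
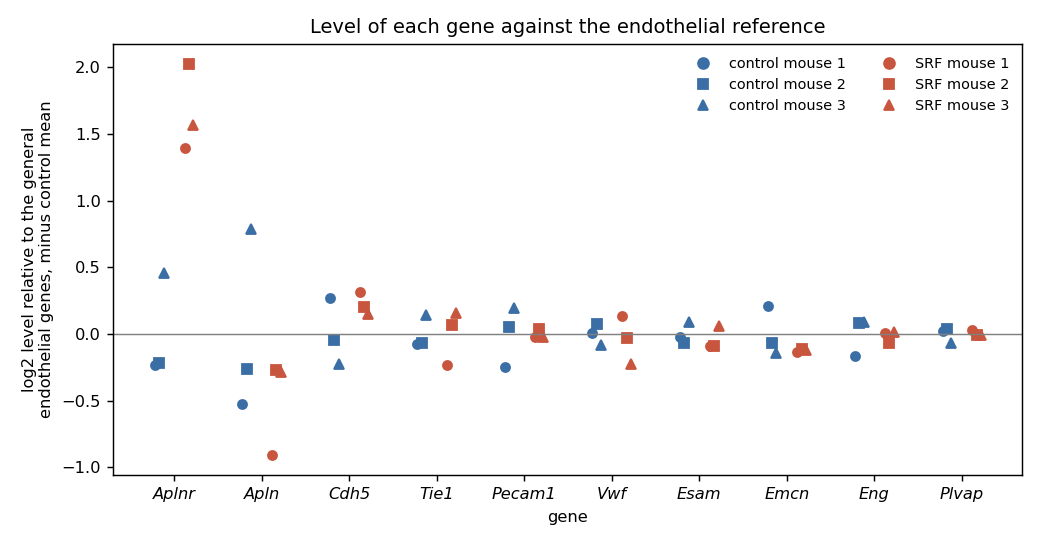
Level of each member relative to the mean log2 CPM of the 8 general endothelial genes (of the other 7 for those genes themselves), on a log2 scale and centred on its control mean, each point 1 mouse. The 3 SRF mice lie above the 3 control mice for Aplnr only, with a difference of 1.66, and the smallest spread is that of Plvap.

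Within groups, the general endothelial genes went up and down together from mouse to mouse. Across the 6 libraries, the correlation of deviations from the group means had a median of 0.83 over the 28 pairs of these genes, from 0.24 (Cdh5 with Tie1) to 0.99 (Cdh5 with Emcn). Aplnr had 0.34 and Apln -0.07 with the mean of the 8 genes, and Aplnr had 0.82 with Apln. With single general genes, Aplnr ranged from -0.07 (Cdh5) to 0.79 (Tie1), within the range of many pairs among the 8 at its upper end. Apln ranged from -0.58 (Cdh5) to 0.56 (Tie1). These are descriptions over 6 libraries. All genes of a library share its depth and dissection, which differed between libraries. Control mouse 3 was the highest control mouse in both Aplnr and Apln.

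The genes whose log2 CPM followed that of Aplnr most closely over the 6 libraries were Glipr1, Sh3tc1, Litaf, Washc2 and Lat2, each with a Pearson correlation of 0.99. Such a match rests on 6 points and a search through all tested genes. Glipr1 had 5.81 ± 1.02 CPM in control and 14.6 ± 2.54 CPM in SRF mice, and Lat2, an adaptor of myeloid and B cells, had 6.50 ± 1.74 and 16.8 ± 4.91 CPM (SD, n = 3 each). Glipr1, Litaf and Lat2 share exonic bases with Krr1, Snn and Rfc2 on the opposite strand. Of the other members, Tie1 came nearest to Aplnr with 0.43, and Apln had -0.20. For Cdh5, the closest were Srrm2, Adra2c, Srrm1, Olfr46 and Zfp609, from 0.998 (Srrm2) to 0.995 (Zfp609), before Plvap with 0.82, the nearest member.

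Macrophage markers moved in the same direction as Aplnr. Of 12 macrophage genes, 11 had a log2 fold change above 0, against 50.3% of all tested genes, and the median was 0.77. An unadjusted edgeR p-value under 0.05 with higher SRF values was found for 8, against 4.16% of all tested genes. DESeq2 called 4, all higher (C1qb, C1qc, Ms4a7 and Cd68), against 0.803% of all tested genes, while edgeR called 0, or the same 4 without control mouse 1 and SRF mouse 3. Their summed level was 662 to 826 CPM in control mice and 1125 to 1397 CPM in SRF mice, and each of the 12 had at least 75 counts in every library. The extremes of the log2 fold change were Cd68, a lysosomal protein, at 1.05 (SE 0.16) and Csf1r, the receptor for macrophage growth factor CSF1, at -0.03 (SE 0.11). Csf1r shares 873 exonic bases with Hmgxb3 on the opposite strand. The part of macrophage RNA in the Aplnr value was not tested.

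The other genes of apelin signalling were not called by either tool, where edgeR called 0.0% and DESeq2 1.14% of all tested genes. Of 14 genes for processing enzymes, G proteins, arrestins and hypoxia factors, 13 were tested and Apela, the other ligand, was not analysed here. With 8 above and 5 below 0, their median log2 fold change was 0.01. An unadjusted edgeR p-value under 0.05 was found for 1 gene (7.01% of all tested genes) and groups apart for 1 (13.1%). Arrb2, an arrestin that binds activated receptors of this class, had groups apart, with 11.6 ± 0.587 CPM in control and 14.4 ± 1.35 CPM in SRF mice (SD, n = 3 each) and a log2 fold change of 0.31 (SE 0.16). The gene under 0.05 was Gnai2, an inhibitory G protein subunit of many cell types including leukocytes, with 120 ± 24.6 CPM in control and 197 ± 74.7 CPM in SRF mice and overlapping groups. Its log2 fold change was 0.72 (SE 0.30, edgeR adjusted p-value 0.71). Furin, a protease that can cut the apelin precursor, was at 0.16 (SE 0.18). The subunit Gnai1 was at -0.11 and the hypoxia factor gene Hif1a at -0.06, with SEs of 0.24 and 0.27.

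Further endothelial genes had a median close to that of the 8 general members and a wider range. Of 30, 29 were tested, 15 above and 14 below 0, with a median log2 fold change of 0.03. Neither edgeR nor DESeq2 called any, against 0.0% and 1.14% of all tested genes. An unadjusted edgeR p-value under 0.05 was found for 1, against 7.01% of all tested genes. Groups were apart for 4 of the 29, where 13.1% of all tested genes had groups apart in either direction. Sox17 and Clec14a were higher and Car4 and Podxl lower in SRF mice. The gene under 0.05 was Sox17, a transcription factor of arterial endothelium, with 15.9 ± 2.10 CPM in control and 24.8 ± 4.18 CPM in SRF mice. Its log2 fold change was 0.64 (SE 0.18, edgeR adjusted p-value 0.425). Car4, a carbonic anhydrase of capillary endothelium, was lowest at -0.49 (SE 0.24). With Aplnr set against these 29 genes in place of the 8, the difference of log2 fold changes was 1.69, beside 1.68 against the median of the 8.

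Genes of tip cells and sprouting, among which Apln is often counted, had a median log2 fold change of -0.01 over the 11 tested of 13, with 4 above and 7 below 0. Both tools called 0, against 0.0% (edgeR) and 1.14% (DESeq2) of all tested genes. An unadjusted edgeR p-value under 0.05 was found for 1 gene, against 7.01% of all tested genes. It was Unc5b, a guidance receptor of tip cells that other cells also carry, with 6.58 ± 0.559 CPM in control and 13.7 ± 4.01 CPM in SRF mice. Its log2 fold change was 1.06 (SE 0.26), with an adjusted p-value of 0.402 from edgeR and 0.0561 from DESeq2, and edgeR called it without control mouse 1 and SRF mouse 3. Groups were apart for 3 of the 11, against 13.1% of all tested genes in either direction, with Unc5b and Lama4 higher and Trp53i11 lower in SRF mice. Angpt2, Dll4 and Esm1, markers of sprouting vessels, were at 0.11, -0.23 and -0.23, and the growth factor gene Vegfa was lowest at -0.38 (SE 0.26).

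Aplnr is a venous gene in many tissues, so arterial and venous lists were read beside it. All 6 venous genes were above 0, where 50.3% of all tested genes were, with a median of 0.13 (0.24 without control mouse 1 and SRF mouse 3). Their range ran from Nrp2, a semaphorin and VEGF-C receptor, at 0.09 (SE 0.15) to Selp, an adhesion molecule stored with Vwf, at 0.65 (SE 0.29). Neither tool called any venous gene, against 0.0% (edgeR) and 1.14% (DESeq2) of all tested genes. No venous gene had an unadjusted edgeR p-value under 0.05 or groups apart, against 7.01% and 13.1% of all tested genes. The 9 arterial genes had a median of 0.09, from Efnb2 at -0.31 (SE 0.19) to Sox17, and neither tool called any. Of these 9, 1 was higher at an unadjusted edgeR p-value under 0.05 (Sox17), against 4.16% of all tested genes. Groups were apart with SRF higher for 2 (Sox17 and Hey1), against 6.71% of all tested genes.

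**Figure D3:**
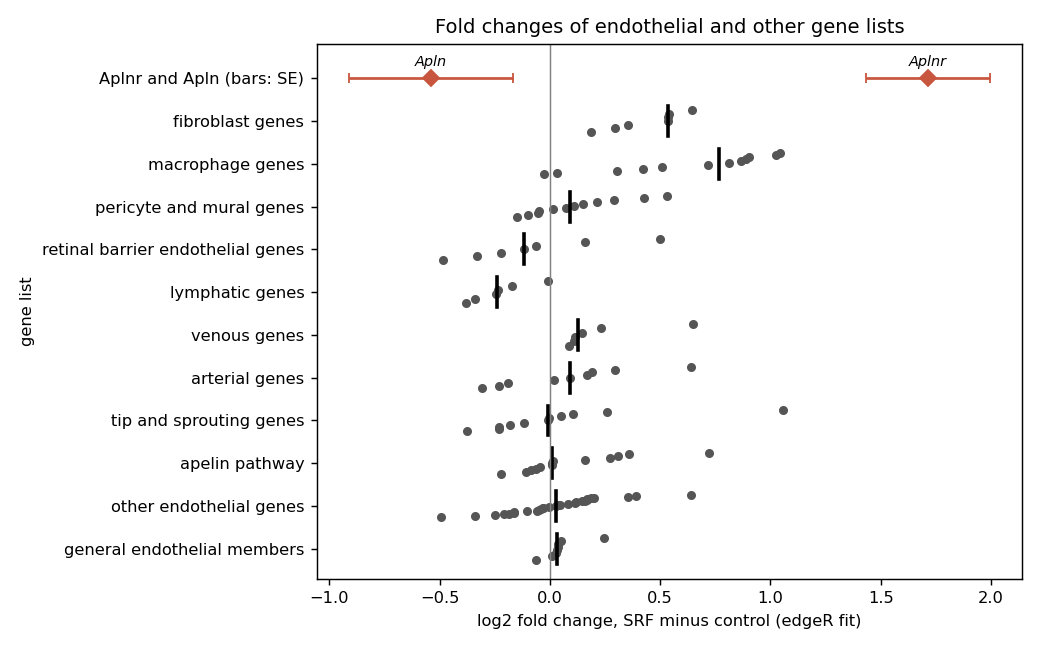
Log2 fold changes (SRF over control, edgeR) of the genes in each list, each point 1 gene and each upright line the list's median, with Aplnr and Apln as diamonds whose bars are 1 SE. Aplnr at 1.71 lies outside the range of the endothelial, arterial and venous lists, whose medians are between 0.03 and 0.13, and the macrophage genes have a median of 0.77.

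The distance between Aplnr and the general genes was above 0 in all 21 alternative settings, and that of Apln below 0. Every setting used these same libraries or a part of them, and some changed only the endothelial reference. As Aplnr was chosen from this comparison, the agreement between settings is no test of it. Aplnr minus the endothelial median lay between 1.21 and 1.91, and Apln minus the endothelial median between -0.83 and -0.11. The endothelial median itself stayed between -0.07 and 0.16, on both sides of 0.

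**Figure D4:**
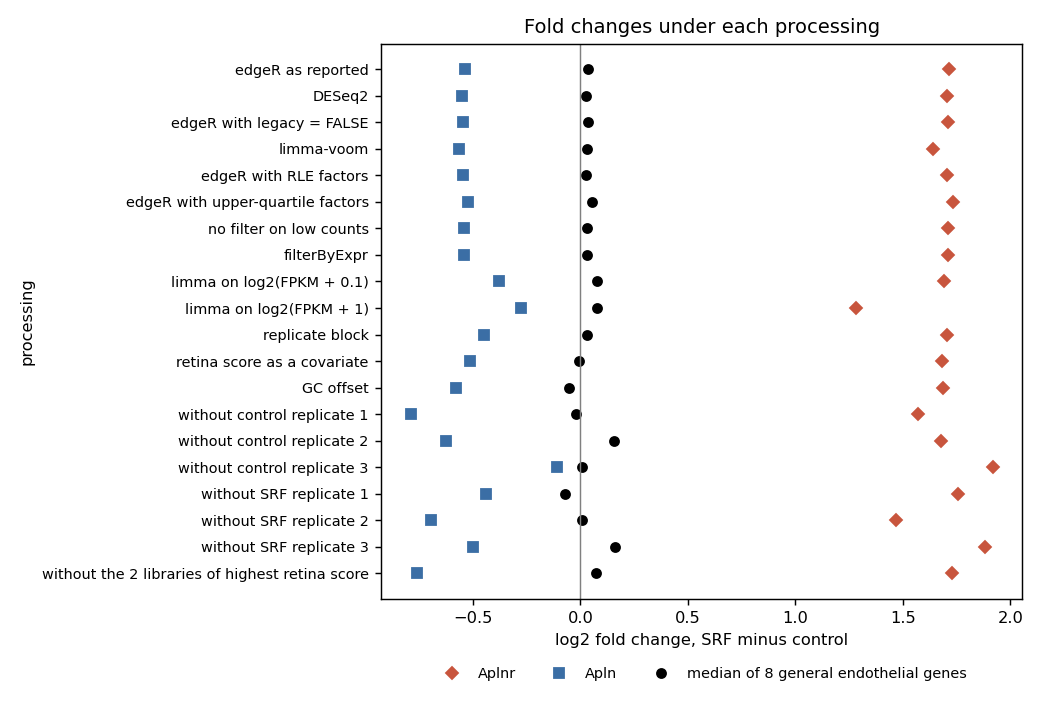
Log2 fold change of Aplnr, Apln and the median of the 8 general endothelial genes under each alternative setting and with each library left out. Aplnr stays between 1.28 and 1.92 and Apln between -0.79 and -0.11, and the endothelial median stays within 0.16 of 0.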

How the data were processed

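Total RNA of RPE-choroid from 6 mice was sequenced. The authors filtered reads with FASTP, and StringTie counted reads per gene; the submitters' processing notes also name DESeq2. The deposited counts are raw whole numbers, and the deposited FPKM values were scaled by the authors for transcript length and mapped reads. The aligner, build, annotation and strandedness were not given in the sources used here. GENCODE M21 on GRCm38 was used because it holds 15659 of the 15663 identifiers.

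Groups and mouse numbers were read from the sample labels. The members and all gene lists were chosen with earlier results of these data known, and the lists were written by hand from common knowledge. The 13454 genes that exceeded 50 counts in 2 or more samples were fitted with edgeR 4.0.16 in R 4.3.3 (TMM factors, estimateDisp, glmQLFit with its legacy default, glmQLFTest, no term but the group), with Benjamini-Hochberg adjustment across them. Calls needed an adjusted p-value below 0.05 together with an absolute log2 fold change of 0.5 or more. CPM uses TMM-scaled library sizes, the standard error is the absolute log2 fold change over the square root of F, and log2 CPM has a prior count of 0.5. DESeq2 1.42.0 and limma 3.58.1 were alternatives. Scripts were tested on simulated counts. Outside the members, genes were named when their unadjusted p-value was under 0.05 or DESeq2 called them (apelin, endothelial, tip, arterial and venous lists), otherwise as the highest and lowest of a list, or as the 5 genes closest to Aplnr and to Cdh5. Furin, Gnai1, Hif1a, Angpt2, Dll4 and Esm1, the macrophage genes C1qb, C1qc and Ms4a7, and Arrb2, Clec14a, Podxl, Hey1, Lama4, Trp53i11 and Lrat, were named after their values were seen. The value of 1 listed gene is not reported here. Same-numbered mice are different animals. Totals of 13667310 to 24356023 counts set the precision, and counting errors do not cover differences between mice.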

Additional observations from a re-analysis of the deposited data

How the results depend on the processing

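Across the other settings, Aplnr minus the endothelial median moved by more than the spread between mice once, with limma on log2(FPKM + 1), where it was 1.21. Leaving out each library in turn gave 1.46 to 1.91 for it, -0.78 to -0.11 for Apln minus the endothelial median and -0.07 to 0.16 for the median itself. The value of -0.11 came without control mouse 3. No result changed its direction beyond that spread.

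The count of genes called over the whole table was 0 with edgeR as first fitted, and it was also 0 with RLE factors and with the GC offset. It was 153 with DESeq2, 1 with the newer form of the edgeR fit, 1 with limma-voom, 1 with upper-quartile factors, 1 without a filter on low counts, 1 with filterByExpr, 2 with limma on log2(FPKM + 0.1), 2 with limma on log2(FPKM + 1), 1 with the photoreceptor score as a covariate and 153 without the 2 libraries of highest photoreceptor score, a setting chosen after seeing the data. With a library left out it was 0 to 5, the 5 without control mouse 1. The DESeq2 count was 67 (without SRF mouse 2) to 343 (without SRF mouse 3), and 246 without control mouse 1 and 90 without control mouse 2. DESeq2 called Aplnr with all libraries and with each one left out. Among the edgeR and limma settings, Aplnr was called only without the 2 libraries of highest photoreceptor score. These calls are no test of Aplnr, because it was chosen from this same comparison. The cause of the differing counts was not tested.

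In a fit that took the number of each mouse as a replicate block, 0 genes were called, 1206 had an unadjusted p-value under 0.05 against 943 without it, Aplnr minus the endothelial median was 1.68 and Apln minus it -0.48. The numbers do not pair the mice: deviations of same-numbered mice correlated at -0.48, 0.48 and -0.30.

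With 3 mice a group, the SE of the general endothelial genes was 0.13 to 0.22, so differences of that size could not be told from the spread between mice. Whole tissue cannot place Aplnr or Apln in a cell type.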

Other observations

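Genes of other cells in the tissue were read with the same fit. With all 6 libraries edgeR called 0 in each of the lists that follow, as over all tested genes (0.0%). All 6 lymphatic genes were below 0, with a median log2 fold change of -0.24 (-0.41 without control mouse 1 and SRF mouse 3), from Pdpn at -0.38 (SE 0.13) to Flt4 at -0.01 (SE 0.19), and their summed level was 738 to 808 CPM in control mice and 561 to 653 CPM in SRF mice. Pdpn, which made up most of that sum with 693 ± 44.4 CPM in control and 532 ± 59.7 CPM in SRF mice (SD, n = 3 each), is also expressed outside lymphatic vessels, in retinal pigment epithelium among others. The 7 barrier genes of retinal vessels had a median of -0.12 (-0.19 without those 2 mice), from Slco1c1, a thyroid hormone carrier, at -0.49 (SE 0.13) to Slc7a5, an amino acid carrier, at 0.50 (SE 0.16). Of these 7, 1 was higher and 1 lower at an unadjusted edgeR p-value under 0.05 (4.16% and 2.85% of all tested genes). Pericyte and mural genes had a median of 0.09 over 12 (0.20 without those 2 mice), from Acta2 at -0.15 (SE 0.15) to Notch3 at 0.53 (SE 0.28). Of the 12, 1 was higher at an unadjusted edgeR p-value under 0.05 (4.16% of all tested genes).

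Platelet genes, of cells that also hold Vwf and Esam, were low, and Gp6 was not analysed here. The 6 listed of 7 had a summed level of 23.6 to 30.4 CPM in control mice and 24.6 to 27.7 CPM in SRF mice. The 3 tested had a median of -0.19, which turned to 0.15 without those 2 mice, from Ppbp at -0.43 (SE 0.50) to Pf4 at 0.13 (SE 0.17). Red cell genes, a sign of blood left in the vessels, had a median of -0.11 over 5, which turned to 0.06 without them, from Hbb-bt at -0.28 (SE 0.24) to Hba-a2 at -0.05 (SE 0.29). The 7 fibroblast genes were all above 0 with a median of 0.53, from Pdgfra at 0.19 (SE 0.13) to Col3a1 at 0.64 (SE 0.21). DESeq2 called 0 of these 7, against 1.14% of all tested genes. The median of the fibroblast genes was 0.15 without those 2 mice. Photoreceptor genes had a median of -0.21 over 12 (-0.28 without those 2 mice), from Cnga1 at -0.28 (SE 1.31) to Sag at 0.29 (SE 1.29). The 10 retinal pigment epithelium genes had a median of -0.50 (-0.33 without those 2 mice), from Rrh at -0.77 (SE 0.13) to Best1 at 0.32 (SE 0.30). Of these 10, 6 were lower at an unadjusted edgeR p-value under 0.05 (2.85% of all tested genes), and 6 had groups apart with SRF lower (6.43% of all tested genes). DESeq2 called 3, all lower (0.334% of all tested genes), and edgeR called 1, Lrat, without those 2 mice. Proliferation genes had a median of -0.28 over 7 (-0.15 without those 2 mice), from Ccnb1 at -0.78 (SE 0.40) to Mcm2 at 0.03 (SE 0.15).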
